A study of Mus musculus with 24 samples.

Results

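The genes described here are the nuclear genes for mitochondrial ribosomal proteins, taken as the gene names Mrpl or Mrps followed by a number, with any suffix dropped. The rule found 76 of the 14106 genes in the RNA-seq table, of which 47 are Mrpl genes (large subunit by name) and 29 are Mrps genes (small subunit by name). Their mRNA was measured by poly(A) RNA-seq in B lymphocytes from mouse spleen, activated in culture with interleukin 4 and lipopolysaccharide for 60 h in all, the last 32 h with 2 µM 4-hydroxytamoxifen, which switches on the Cre-ERT2 recombinase. In the 3 Spt5-depleted libraries, headed KO in the table, the cells were Supt5hFl/- Rosa26ERT2-cre/+: of the alleles of Supt5h, which encodes the transcription elongation factor Spt5, one was floxed and the other null. In the 3 WT libraries the cells were Rosa26ERT2-cre/+, so they carried the same recombinase and had the same drug. Age and strain are not given in the labels, and they describe the cells both as mature and as immature.

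The recombinase is expressed from the Rosa26 locus, which is active in most cell types, so the deletion was not limited to B cells. The WT genotype has no null allele, so effects of that allele and those of the induced deletion cannot be told apart. Whether each library came from its own animal is not stated, and p-values therefore measure only how far these libraries differ from each other, a spread that can be technical. Spt5 protein was not measured. The 18 samples of the other assays of the series were not analysed here.

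The mitochondrial ribosome translates the few mRNAs of the mitochondrial genome, which encode core subunits of the respiratory chain and of ATP synthase. Its small subunit binds and decodes the mRNA, and its large subunit joins the amino acids and lets the growing chain out towards the inner membrane. Its ribosomal RNAs are mitochondrial transcripts, while its proteins are made in the cytosol from nuclear mRNAs and imported. Some of these proteins have counterparts in the bacterial ribosome and others are particular to mitochondria.

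Library totals were 17306549 to 21441575 counts in Spt5-depleted cells and 23340978 to 25649611 counts in WT cells. The target itself, Supt5, was at 189, 196 and 314 counts in Spt5-depleted libraries, against 3796, 3512 and 4666 counts in WT libraries, a log2 fold change of -3.94 ± 0.14 (SE; edgeR quasi-likelihood test, adjusted p = 1.26e-10). Sex-linked transcripts separated the libraries in the same way as the genotype. Xist, which is transcribed from the inactive X chromosome, had 18, 28 and 40 counts in Spt5-depleted libraries, against 14844, 20130 and 11367 in WT libraries, and the Y-linked gene Ddx3y had 704, 846 and 1019 counts against 1, 0 and 0. Sex and genotype cannot be told apart in these libraries. All 76 genes lie on autosomes in RefSeq's mouse annotation, which does not remove this limit. Of 9 B cell marker genes, 3 were called lower (Cd22, Fcer2a and IGHM) and 6 were not called. Their summed level was 19809, 17918 and 20595 CPM in Spt5-depleted libraries, against 23775, 44143 and 30929 CPM in WT libraries. A single gene of that list averaged 27833 CPM in WT cells and so weighs most in the sum. Of 6 tested markers of macrophages or monocytes, 4 were called higher (Emr1, Csf1r, Cd14 and Itgam), of which Cd14 alone had no overlap between the groups, and the summed level of that list was 28.1, 63.1 and 49.1 CPM in Spt5-depleted libraries, against 23.6, 32.3 and 26.96 CPM in WT libraries. Of 3 tested dendritic cell markers, 2 were higher (Xcr1, log2 fold change 2.75, and Zbtb46, 0.66), with a summed level of 95.8 to 97.4 CPM in Spt5-depleted libraries, against 85.4 to 99.6 CPM in WT libraries. Of 2 tested NK cell markers, 1 was lower (Gzma, -0.95), with a sum of 5.45 to 8.71 CPM against 10.6 to 15.4 CPM in WT libraries. The 8 T cell markers summed to 159 to 184 CPM in Spt5-depleted libraries, against 181 to 209.6 CPM in WT libraries. The part of these shifts in the results on mitochondrial ribosomal protein genes was not tested.

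Across the mitochondrial ribosomal protein genes, the mRNA levels split into some that were higher, some that were lower and many that did not pass the test. Levels are given as CPM (counts scaled to a common library size) scaled by the trimmed mean of M-values (TMM), and changes as log2 fold changes of Spt5-depleted over WT with their standard error. A gene was called when edgeR's quasi-likelihood test gave an adjusted p under 0.05 over all 12024 genes tested. Of the 76 genes, 75 passed the filter on low counts. Of these 20 were called higher and 22 lower in Spt5-depleted cells, and 33 were not called. Over all tested genes, 31.8% were called higher and 30.6% lower, so neither share of these genes stood far from that of the table. All 42 called genes had levels that did not overlap between the groups. Called or not, 22 of the 75 genes were higher and 26 lower without overlap, against 34.2% and 33.3% of all tested genes.

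The changes were small. The log2 fold change lay within 1.5-fold in either direction for 62 of the 75 genes (82.7%), against 61.4% of all tested genes. That share is not particular to these genes. It was 82.5% for nuclear subunits of oxidative phosphorylation, 82.4% for mitochondrial translation factors and 79.3% for mitoribosome assembly genes. It was lower for cytosolic ribosomal proteins (71.1%) and mitochondrial aminoacyl-tRNA synthetases (58.8%). The median WT level was 84.9 CPM for these 75 genes and 25.5 CPM for all tested genes. The standard deviation of the log2 fold change was 0.46 over these genes and 0.90 over all tested genes; the median standard error was 0.09 for these genes and 0.11 for all tested genes. A call together with a change of at least 2-fold was made for 1 gene that was higher (Mrpl39) and 3 that were lower (Mrps28, Mrpl54 and Mrpl48), where 9.87% of tested genes were that much higher and 7.63% that much lower. The median log2 fold change was -0.03 over the 75 genes and 0.00 over all tested genes. In bulk RNA, fewer cells of a type and less RNA per cell cannot be told apart.

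**Figure D1:**
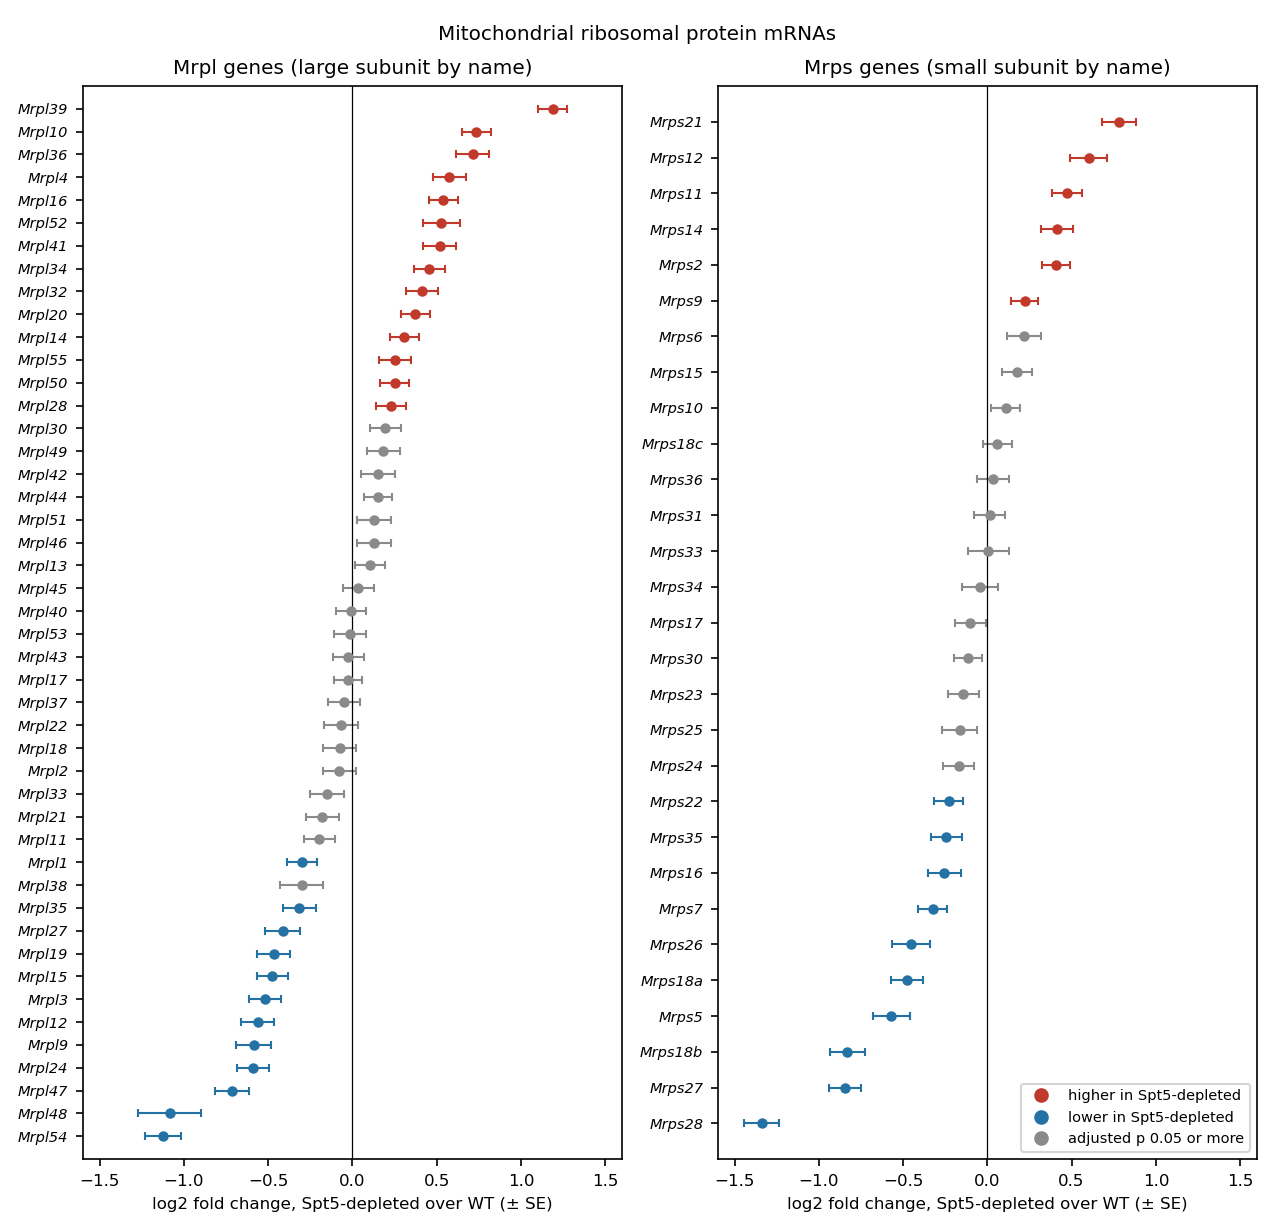
Log2 fold change of each tested Mrpl gene (left, 46 genes) and Mrps gene (right, 29 genes), Spt5-depleted over WT; points are edgeR estimates and bars are ± SE. Red points were called higher, blue points lower and grey points were not called at an adjusted p of 0.05; Mrpl39 lies at 1.19 and Mrps28 at -1.34, the ends of the range.

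Of the 46 tested large subunit genes, 14 were called higher and 12 lower, and 20 were not called. The calls were 30.4% higher and 26.1% lower, against 31.8% and 30.6% of all tested genes. The median log2 fold change was -0.01 and the range was -1.13 to 1.19. The libraries of the groups did not overlap for 15 genes that were higher and for 13 that were lower, against 34.2% and 33.3% of all tested genes. The genes that were not called had log2 fold changes between -0.30 and 0.20.

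The genes of the large subunit's stalk, the flexible arm that contacts translation factors, did not move together. Mrpl10, which anchors the stalk, had 226, 215 and 221 CPM in Spt5-depleted libraries, against 126, 126 and 145 CPM in WT libraries. All 3 Spt5-depleted libraries lay well above all WT libraries, and Mrpl10 was 1.66-fold higher (log2 fold change 0.73 ± 0.09, adjusted p = 4.38e-06 by edgeR). Mrpl12, whose protein forms the arm itself and binds to Mrpl10, had 208, 179 and 181 CPM in Spt5-depleted libraries, against 290.0, 244 and 304 CPM in WT libraries. Here every Spt5-depleted library lay below every WT library, and the level was 1.48-fold lower (log2 fold change -0.56 ± 0.10, adjusted p = 0.000184). Mrpl11, at the base of the stalk, had a mean of 125 ± 8.74 CPM in Spt5-depleted cells and 143 ± 13.2 CPM in WT cells (SD, n = 3 each); the groups overlapped and it was not called (log2 fold change -0.20, adjusted p = 0.0788 by edgeR). Mrpl11 was named after its value was seen, for its place in the stalk.

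Mrpl39, a subunit particular to mitochondria that is related in sequence to threonyl-tRNA synthetase, was the most increased of these genes. It had 253, 264 and 232 CPM in Spt5-depleted libraries, against 107, 105 and 116 CPM in WT libraries, which is 2.28-fold higher (log2 fold change 1.19 ± 0.09, adjusted p = 3.79e-08 by edgeR). The spread within either group was small beside the gap between them. Mrpl36, a short zinc-binding protein with a bacterial counterpart, had 199, 183 and 170.0 CPM against 120.1, 98.7 and 117 CPM in WT libraries (log2 fold change 0.71 ± 0.10, adjusted p = 1.7e-05). Mrpl4, whose bacterial counterpart lines the exit tunnel, had 179.8, 157 and 163 CPM against 108, 102 and 126 CPM in WT libraries (0.57 ± 0.10 on the log2 scale). Both genes were higher in each Spt5-depleted library than in any WT library.

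The further increases in the large subunit were smaller. Mrpl16, whose bacterial counterpart lies near the tRNA binding sites, averaged 130.0 ± 7.19 CPM in Spt5-depleted cells and 89.4 ± 5.55 CPM in WT cells (log2 fold change 0.54 ± 0.09, edgeR adjusted p = 8.13e-05). Mrpl52 and Mrpl41, both particular to mitochondria, had log2 fold changes of 0.53 ± 0.11 and 0.52 ± 0.10, and Mrpl34, the counterpart of a small bacterial protein, 0.46 ± 0.09. The name of Mrpl41 carries a suffix that possibly marks a gene overlapping another one, so its reads may be shared. Of these, Mrpl52 varied most, with 192, 149 and 164 CPM in Spt5-depleted libraries, against 116, 104 and 131 CPM in WT libraries, still without overlap. The other 6 called genes, Mrpl32, Mrpl20, Mrpl14, Mrpl55, Mrpl50 and Mrpl28, had log2 fold changes between 0.23 and 0.41. Without Spt5-depleted library 1 or 2 or WT library 2, the calls of Mrpl28, Mrpl50 and Mrpl55 were lost (edgeR adjusted p up to 0.135, 0.0960 and 0.170), and that of Mrpl28 also without WT library 1. Among them Mrpl32 is the protein that the mitochondrial m-AAA protease, built from Afg3l2 and Spg7, must cut before it joins the ribosome.

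The largest decrease in the large subunit was that of Mrpl54, a subunit particular to mitochondria. It had 63.3, 55.8 and 61.2 CPM in Spt5-depleted libraries, against 116, 125 and 153 CPM in WT libraries, 2.18-fold lower (log2 fold change -1.13 ± 0.11, adjusted p = 4.86e-07 by edgeR). Mrpl48, a protein of the central protuberance at the top of the large subunit, had 12.9, 13.998 and 10.4 CPM against 20.2, 24.7 and 34.1 CPM in WT libraries (log2 fold change -1.09 ± 0.18, adjusted p = 0.000405). Its WT libraries were spread widely and its standard error is the largest of all tested members; its name carries a suffix that possibly marks a gene overlapping another one, and RefSeq lists a named pseudogene copy, so its reads may be shared.

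The 12 large subunit genes called lower include Mrpl47 and Mrpl24, whose proteins lie around the exit of the polypeptide tunnel, where chains leave the ribosome. The proteins of this site are not all given here. Mrpl47 had 31.2, 29.2 and 26.3 CPM in Spt5-depleted libraries, against 48.2, 43.1 and 50.5 CPM in WT libraries (log2 fold change -0.71 ± 0.10, adjusted p = 2.45e-05 by edgeR). Mrpl24 had 21.99, 21.2 and 22.8 CPM against 31.0, 33.1 and 35.3 CPM in WT libraries (-0.59 ± 0.10, adjusted p = 9.64e-05); its name also carries the suffix. Both were lower in every Spt5-depleted library. At the same site, Mrpl22 (log2 fold change -0.07, adjusted p = 0.584) and Mrpl45, which holds the ribosome to the inner membrane (0.04, adjusted p = 0.754), were not called and their groups overlapped. These 2 were named after their values were seen.

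Decreases were also called for Mrpl9 (31.7 ± 1.08 CPM in Spt5-depleted cells against 47.5 ± 6.11 CPM in WT cells, SD, n = 3 each), for Mrpl3, whose bacterial counterpart reaches towards the peptidyl transferase centre (96.8 ± 6.62 against 139 ± 12.2 CPM), and for Mrpl15 (111 ± 5.80 against 154 ± 14.9 CPM). Their log2 fold changes were -0.59, -0.52 and -0.48, with edgeR adjusted p of 0.000187, 0.000197 and 0.000385. The other 4 called genes, Mrpl19, Mrpl27, Mrpl35 and Mrpl1, had log2 fold changes between -0.47 and -0.30, and the call of Mrpl35 was lost without Spt5-depleted library 3 (edgeR adjusted p = 0.0732). The name of Mrpl19 carries the suffix.

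Among the large subunit genes that were not called, those nearest to no change were Mrpl40 and Mrpl53, both particular to mitochondria. Mrpl40 had 134, 116 and 118 CPM in Spt5-depleted libraries, against 121, 118 and 131 CPM in WT libraries, and Mrpl53 had 49.0, 48.3 and 44.9 CPM against 46.0, 52.5 and 45.1 CPM. The groups overlapped for both, and the name of Mrpl53 carries the suffix. Mrpl44, which has the fold of an RNase III enzyme, had 68.6, 72.7 and 71.2 CPM in Spt5-depleted libraries, against 60.5, 65.2 and 65.8 CPM in WT libraries. Its libraries did not overlap, but the difference missed the threshold (log2 fold change 0.15 ± 0.08, edgeR adjusted p = 0.133). With library totals alone as the scaling it was called (0.31, adjusted p = 0.00579). Mrpl23 was not tested; it had 0, 5 and 4 counts in Spt5-depleted libraries and 6, 1 and 3 counts in WT libraries, and RefSeq lists a named pseudogene copy of it.

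**Figure D2:**
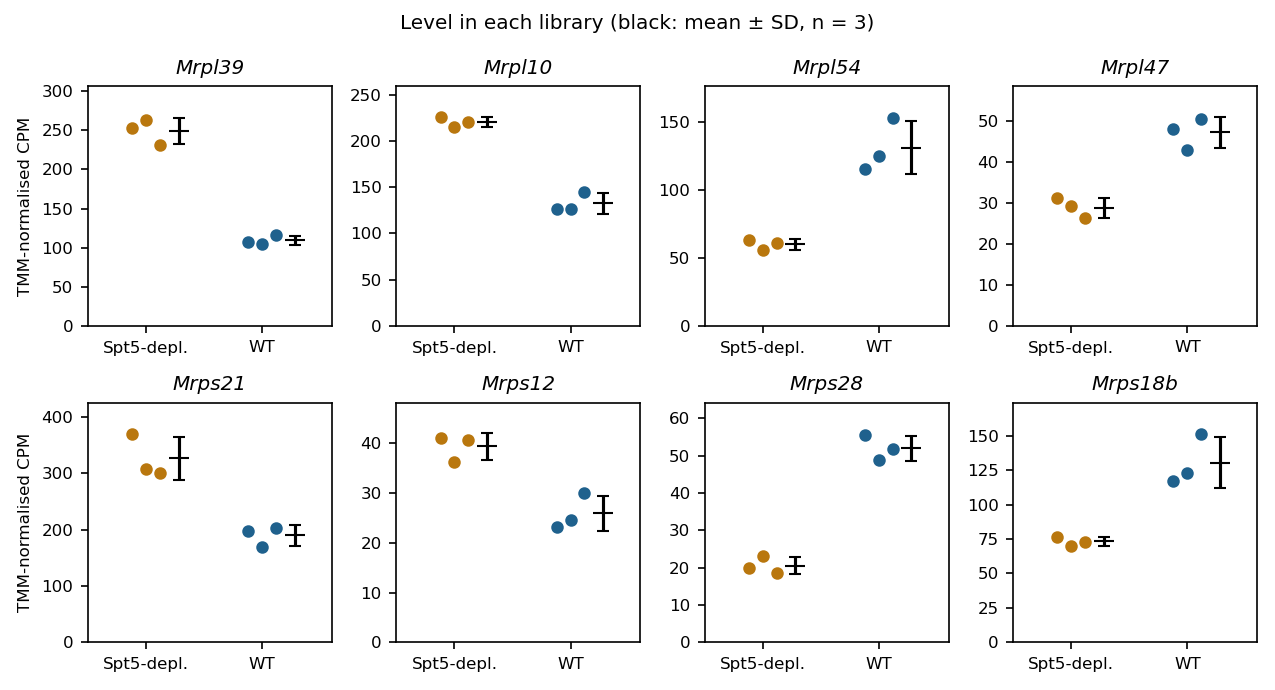
TMM-normalised CPM of 8 genes in each library, Spt5-depleted at left and WT at right in each panel; points are libraries, and the black line and bar are the mean ± SD (n = 3). Mrpl39, Mrpl10, Mrps21 and Mrps12 lie higher in every Spt5-depleted library than in any WT library, and Mrpl54, Mrpl47, Mrps28 and Mrps18b lie lower.

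Of the 29 small subunit genes, all tested, 6 were called higher and 10 lower, and 13 were not called. The median log2 fold change was -0.10 and the range was -1.34 to 0.78. The calls were 20.7% higher and 34.5% lower, against 31.8% and 30.6% of all tested genes. The libraries did not overlap for 7 genes that were higher and for 13 that were lower, against 34.2% and 33.3% of all tested genes. The genes that were not called had log2 fold changes between -0.17 and 0.22. The balance of calls moved with the scaling. When library totals alone were used, 10 small subunit genes were called higher and 6 lower, and over both subunits 31 were called higher and 16 lower, since that scaling moved the median of all tested genes to 0.16.

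The 6 small subunit genes that were higher all have bacterial counterparts, as do 6 of the 10 that were lower and 18 of the 29 in all. Mrps21 had 369.9, 308 and 301 CPM in Spt5-depleted libraries, against 198, 169 and 202 CPM in WT libraries, 1.72-fold higher (log2 fold change 0.78 ± 0.10, adjusted p = 1.11e-05 by edgeR). Mrps12, the counterpart of the bacterial protein at the decoding centre, had 41.2, 36.3 and 40.7 CPM against 23.2, 24.6 and 30.001 CPM in WT libraries (0.60 ± 0.11, adjusted p = 0.000246). Both were higher in all Spt5-depleted libraries than in any WT library. Mrps11 (0.47 ± 0.09), a protein of the platform, and Mrps14 (0.41 ± 0.09), a protein of the head, were higher as well. Mrps2 averaged 136 ± 3.86 CPM in Spt5-depleted cells and 102 ± 6.56 CPM in WT cells (SD, n = 3 each; log2 fold change 0.41 ± 0.08, edgeR adjusted p = 0.000668). Mrps9, also of the head, had 93.6, 92.6 and 96.6 CPM in Spt5-depleted libraries, against 79.7, 81.9 and 80.9 CPM in WT libraries (0.22 ± 0.08, adjusted p = 0.0258). Its levels were close within each group, yet its call was lost without Spt5-depleted library 1, 2 or 3 (edgeR adjusted p = 0.0718, 0.0631 and 0.0723) and without WT library 1 (0.0505).

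Mrps28 was the most decreased of all mitochondrial ribosomal protein genes. It had 19.98, 23.03 and 18.6 CPM in Spt5-depleted libraries, against 55.5, 48.7 and 51.8 CPM in WT libraries, 2.53-fold lower (log2 fold change -1.34 ± 0.10, adjusted p = 6.5e-08 by edgeR). No Spt5-depleted library came near a WT library. Mrps27, a pentatricopeptide repeat protein particular to mitochondria, had 34.6, 34.8 and 34.7 CPM against 58.2, 59.4 and 69.2 CPM in WT libraries (-0.84 ± 0.09, adjusted p = 2.44e-06); its name carries the suffix. Mrps5, with a bacterial counterpart, averaged 29.95 ± 2.57 CPM in Spt5-depleted cells and 44.4 ± 5.63 CPM in WT cells, and Mrps26, particular to mitochondria, 21.2 ± 0.961 and 29.0 ± 3.82 CPM (SD, n = 3 each). Their log2 fold changes were -0.57 and -0.45. Mrps7, Mrps16, Mrps35 and Mrps22 had smaller decreases, with log2 fold changes between -0.32 and -0.23. The call of Mrps16 was lost without Spt5-depleted library 2 or 3 or WT library 3 (edgeR adjusted p up to 0.146), and that of Mrps35 without Spt5-depleted library 1 or 3 or WT library 2 or 3 (up to 0.141). Mrps22 had 61.6, 61.4 and 58.6 CPM in Spt5-depleted libraries, against 71.4, 66.5 and 75.02 CPM in WT libraries (adjusted p = 0.0297 by edgeR). With library totals alone its log2 fold change was -0.07 (adjusted p = 0.487), and its call was also lost without Spt5-depleted library 1, 2 or 3 (edgeR adjusted p = 0.0671, 0.0709 and 0.101) and without WT library 3 (0.0538).

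The 3 paralogs of the bacterial S18 protein differed in their values. Mrps18b fell to 76.5, 70.2 and 73.1 CPM in Spt5-depleted libraries, against 117, 123 and 151 CPM in WT libraries (log2 fold change -0.83 ± 0.10, adjusted p = 6.16e-06 by edgeR). Mrps18a, which lies in the large subunit in mammalian structures, had 82.7, 80.1 and 74.8 CPM against 101, 105 and 124 CPM in WT libraries (-0.48 ± 0.10, adjusted p = 0.000529). In both, every Spt5-depleted library was below every WT library. Mrps18c had 141, 135 and 123 CPM in Spt5-depleted libraries, against 129.7, 121 and 133 CPM in WT libraries; the groups overlapped and it was not called (0.06 ± 0.09, adjusted p = 0.565), though it was with library totals alone (0.22, adjusted p = 0.0366). No test of the difference between the paralogs was made. The small subunit genes nearest to no change were Mrps33 (21.8 ± 3.50 CPM in Spt5-depleted cells and 21.7 ± 1.35 CPM in WT cells, SD, n = 3 each) and Mrps31 (36.9 ± 2.16 and 36.5 ± 0.530 CPM).

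Names and positions differ for a few of these genes. Mrps18a and Mrps30 sit in the large subunit of mammalian structures and Mrps36 is not part of them. With genes sorted by position, 14 of 48 tested large subunit genes were called higher (29.2%) and 13 lower (27.1%). Of 26 small subunit genes, 6 were higher (23.1%) and 9 lower (34.6%). Over all tested genes, 31.8% were called higher and 30.6% lower. The sorting by origin kept the subunits by name, so Mrps18a and Mrps30 counted as small subunit genes, and it left out Mrps36. Sorted by origin, the 28 tested large subunit genes with bacterial counterparts held 9 calls higher (32.1%) and 10 lower (35.7%, median log2 fold change -0.08). The 18 particular to mitochondria held 5 higher (27.8%) and 2 lower (11.1%, median 0.13). Among the Mrps genes, the 18 with bacterial counterparts held 6 calls higher and 6 lower (33.3% each, median 0.08). The 10 particular to mitochondria held 0 higher and 4 lower (40%, median -0.15, range -0.84 to 0.01), and are few to set against the shares of all tested genes. For these 10 genes, the counts at an unadjusted p under 0.05 were also 0 higher and 4 lower by edgeR. DESeq2 and limma-voom each called 0 higher, from the same libraries. The 4 lower calls were 2 without Spt5-depleted library 1 or 3, without WT library 3 or with library totals alone, and the 5 higher calls of the large subunit genes particular to mitochondria were 3 without Spt5-depleted library 1 or 2 or WT library 2 and 6 without WT library 3, and 10 with library totals alone. The difference between the kinds was not tested.

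The summed level of the large subunit genes was 4857, 4631 and 4360 CPM in Spt5-depleted libraries, against 4275, 4107 and 4719 CPM in WT libraries. That of the small subunit genes was 3098, 2918 and 2758 CPM in Spt5-depleted libraries, against 2873, 2771 and 3103 CPM in WT libraries. Both sums overlapped between the groups, and their means were 4616 ± 249 against 4367 ± 316 CPM for the large subunit and 2924 ± 170.1 against 2916 ± 169.9 CPM for the small subunit (SD, n = 3 each). A sum weights each gene by its count, which grows with transcript length and level. The ratio of the large to the small sum, which does not depend on the scaling of the libraries, was 1.57, 1.59 and 1.58 in Spt5-depleted libraries, against 1.49, 1.48 and 1.52 in WT libraries. The 3 Spt5-depleted values lay above the 3 WT values, at a mean of 1.579 ± 0.00974 against 1.497 ± 0.0208.

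The size of that gap moved with single genes and with the sorting. Without Mrpl39 the ratio was 1.486, 1.497 and 1.497 in Spt5-depleted libraries, against 1.451, 1.444 and 1.483 in WT libraries, a narrower gap. Without Mrpl39 and Mrps21, the largest rise of each subunit, it was 1.688, 1.673 and 1.681 in Spt5-depleted libraries, against 1.558, 1.538 and 1.587 in WT libraries, a wider gap. With genes sorted by their position in the structure, the groups overlapped, since the lowest Spt5-depleted ratio was 1.829 and the highest WT ratio 1.833. No test was made of this ratio.

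**Figure D3:**
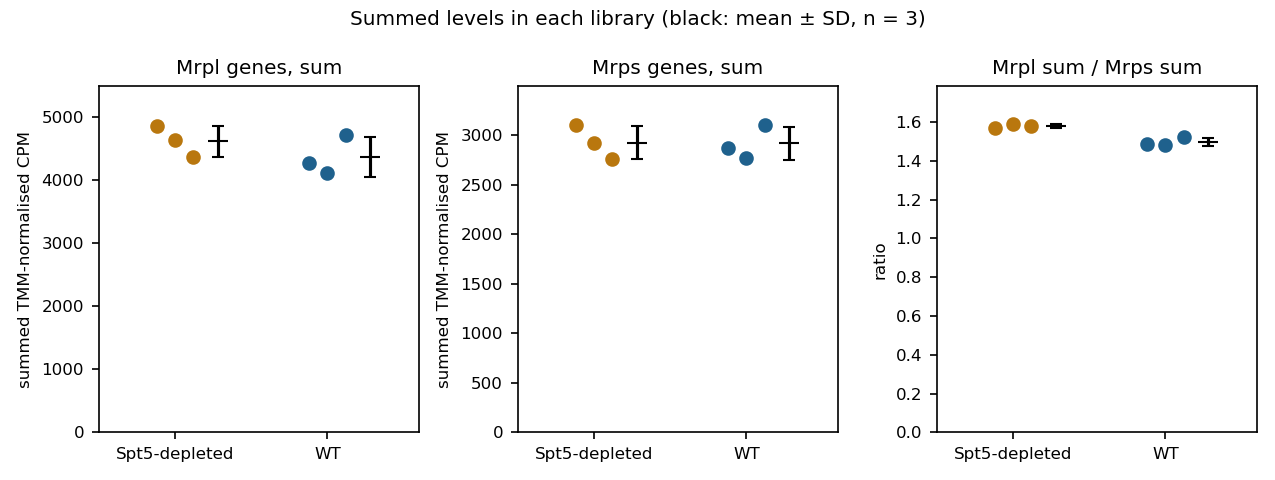
Summed TMM-normalised CPM of the Mrpl genes (left) and Mrps genes (middle), and the ratio of the sums (right), in each library, Spt5-depleted at left and WT at right; points are libraries and the black line and bar are the mean ± SD (n = 3). Both sums overlap between the groups, while the 3 ratios of 1.57 to 1.59 in Spt5-depleted cells lie above the 3 of 1.48 to 1.52 in WT cells.

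Several of these genes lie beside another gene of mitochondrial translation or of the respiratory chain, and a few such neighbours start close together and are read in opposite directions. Mrps12 lies beside Sars2, which encodes the mitochondrial seryl-tRNA synthetase, and Mrps11 beside Mrpl46. The stretch between the RefSeq starts of each pair is shown because the members of a pair share it; both are in build GRCm38.p6, written in the direction of the Mrps gene, and hold none of the 3 motifs searched below. The first is chr7:28741822-28741967 on the minus strand, 146 bases with 49.3% G and C, and the second is chr7:78783090-78783130 on the plus strand, 41 bases with 73.2% G and C.
Mrps12 to Sars2: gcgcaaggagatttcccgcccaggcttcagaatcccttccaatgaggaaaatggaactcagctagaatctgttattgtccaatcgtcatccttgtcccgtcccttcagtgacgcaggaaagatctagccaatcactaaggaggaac
Mrps11 to Mrpl46: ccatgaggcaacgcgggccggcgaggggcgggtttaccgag

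The neighbours had unlike changes. Mrps12 was higher in Spt5-depleted cells while Sars2 was lower, at 7.43 ± 1.21 CPM in Spt5-depleted cells and 18.1 ± 2.25 CPM in WT cells (SD, n = 3 each; log2 fold change -1.28, edgeR adjusted p = 2.42e-06). The ratio of the Mrps12 level to the Sars2 level was 5.55, 5.83 and 4.70 in Spt5-depleted libraries, against 1.45, 1.39 and 1.46 in WT libraries, a ratio that does not depend on the scaling. Mrps11 was higher, and Mrpl46 was not called (log2 fold change 0.13, adjusted p = 0.284); the ratio of their levels was 1.99, 2.00 and 1.90 in Spt5-depleted libraries, against 1.67, 1.58 and 1.41 in WT libraries. Neither ratio overlapped between the groups.

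Neighbours from the respiratory chain are Ndufs6 and Ndufb5, which encode subunits of complex I. Mrpl36 was higher beside Ndufs6, which was not called (log2 fold change -0.02, edgeR adjusted p = 0.863), and the ratio of their levels was 4.75, 4.02 and 4.94 in Spt5-depleted libraries, against 2.77, 2.53 and 2.86 in WT libraries. Mrpl47 was lower beside Ndufb5, which was not called (0.22, adjusted p = 0.0712), with ratios of 0.0723, 0.0663 and 0.0745 against 0.149, 0.126 and 0.132. These pairs were chosen after their values were seen, and no test of the ratios was made.

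**Figure D4:**
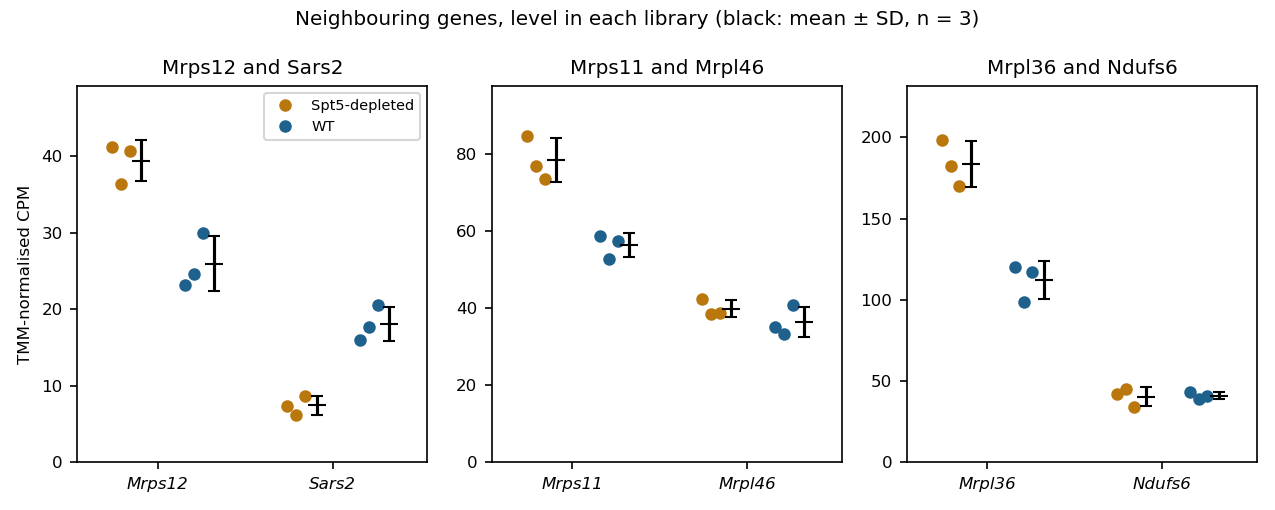
TMM-normalised CPM of the neighbouring genes Mrps12 and Sars2 (left), Mrps11 and Mrpl46 (middle) and Mrpl36 and Ndufs6 (right) in each library, Spt5-depleted left of WT for each gene; points are libraries and the black line and bar are the mean ± SD (n = 3). In each pair the Mrps12, Mrps11 or Mrpl36 level is higher in all Spt5-depleted libraries, while Sars2 is lower and Mrpl46 and Ndufs6 overlap between the groups.

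Promoters of genes for mitochondrial proteins are known to carry sites for the factors NRF1, GABP (an ETS factor) and YY1. RefSeq windows of 250 bases before to 50 bases after the start were found for 67 of the 76 genes, and not for Mrpl4, Mrpl13, Mrpl15, Mrpl19, Mrpl38, Mrpl54, Mrps28, Mrps34 and Mrps35. Exact matches on either strand were sought to GCGCNTGCG for NRF1, CCGGAAG for ETS and AAGATGGCG for YY1, of which the ETS and YY1 motifs can share 3 bases. NRF1 letters were found for 17 of the 67 genes (25.4%), ETS letters for 24 (35.8%) and YY1 letters for 8 (11.9%). At least 1 of them was found for 41 genes. A gene with more than 1 start, as 3 of the 67 have, was counted once if any of its windows matched. In windows of the same length, the shares were 16.2%, 21.04% and 3.79% of 8920 tested genes and 7.12%, 9.93% and 1.64% of 27025 genes with an entry.

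The motifs were found before genes of both directions. NRF1 letters were found for 6 of 19 genes called higher, 5 of 17 called lower and 6 of 30 not called. ETS letters were found for 4 of 19, 9 of 17 and 11 of 30 in the same order. Over all tested genes with an entry, they were found for 23.96% of those called higher and 18.9% of those called lower. YY1 letters were found for 2, 3 and 3 genes. A match is a run of letters and does not show that a factor binds there.

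The same motif could precede genes with opposite changes, and 4 stretches are printed to show it. Each is the 150 bases just before the RefSeq start in build GRCm38.p6, in the direction of the gene, and capitals mark the motif letters. Mrpl39 (higher; chr16:84735245-84735394, minus strand) and Mrpl9 (lower; chr3:94443186-94443335, plus strand) hold NRF1 letters that match on both strands. Mrpl34 (higher; chr8:71464776-71464925, plus strand) and Mrps27 (lower; chr13:99344636-99344785, plus strand) hold ETS letters, in Mrps27 on the opposite strand.
Mrpl39: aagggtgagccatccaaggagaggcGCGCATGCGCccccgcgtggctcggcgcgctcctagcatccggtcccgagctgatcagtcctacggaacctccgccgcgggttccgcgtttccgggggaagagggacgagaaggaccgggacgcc
Mrpl9: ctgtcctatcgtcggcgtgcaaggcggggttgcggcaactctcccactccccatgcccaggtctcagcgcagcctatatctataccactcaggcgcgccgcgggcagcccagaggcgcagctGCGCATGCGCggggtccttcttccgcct
Mrpl34: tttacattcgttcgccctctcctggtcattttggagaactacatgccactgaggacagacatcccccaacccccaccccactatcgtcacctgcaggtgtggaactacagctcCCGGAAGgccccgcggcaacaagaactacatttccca
Mrps27: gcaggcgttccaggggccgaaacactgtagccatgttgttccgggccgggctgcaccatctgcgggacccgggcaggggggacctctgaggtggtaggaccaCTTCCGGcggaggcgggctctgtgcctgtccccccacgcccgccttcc

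Of the nuclear regulators, the genes for the factors of these motifs are given whether called or not. Their choice was not fixed before their values were seen. Gabpa (log2 fold change 0.02, edgeR adjusted p = 0.841) and Yy1 (0.03, adjusted p = 0.768) were not called, while Nrf1 (-0.70, adjusted p = 2.12e-05) and Gabpb1, the partner of Gabpa in GABP (-0.74, adjusted p = 2.13e-06), were lower in Spt5-depleted cells. Of 12 tested regulators, 3 were higher (25%) and 5 lower (41.7%), against 31.8% and 30.6% of all tested genes. Their median log2 fold change was -0.26. Atf5 (1.35) and Myc (0.38) were higher, and Atf4, the transcription factor of the integrated stress response, was lower (-1.68, adjusted p = 5.53e-09).

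The other proteins and factors of mitochondrial translation were also called in both directions, as were all tested genes (31.8% higher and 30.6% lower). Of 7 mitochondrial ribosomal proteins with other gene names, 1 was higher (14.3%) and 3 were lower (42.9%). Mrp63 (Mrpl57 in RefSeq) was higher (log2 fold change 0.58, edgeR adjusted p = 4.62e-05), and Gadd45gip1 (-0.80, adjusted p = 1.47e-05) and Ict1, a peptidyl-tRNA hydrolase built into the large subunit (-0.80, adjusted p = 4.9e-06), were lower. Of 17 translation factors, 5 were higher and 5 lower (29.4% each, near the shares of all tested genes, median log2 fold change 0.04). Mtrf1l, a release factor (0.82), and Taco1, an activator of Cox1 translation (0.69), were higher. Guf1, a GTPase of the elongation factor family (-0.89), and Mrrf, the ribosome recycling factor (-0.48), were lower.

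Of 29 genes for assembly of the mitochondrial ribosome and modification of its RNA, 9 were higher and 9 lower (median log2 fold change 0.21). These were 31.0% each, against 31.8% and 30.6% of all tested genes. Spg7 was higher (1.48, edgeR adjusted p = 5.38e-09) and its partner in the m-AAA protease, Afg3l2, was lower (-0.25, adjusted p = 0.0247), and Mpv17l2 was higher (0.91). Rpusd3, a pseudouridine synthase of the mitochondrial ribosomal RNA, was lower (-1.05), as was C1qbp (-0.53). Of 11 genes for mitochondrial transcription and DNA upkeep, 4 were higher (36.4%) and 2 lower (18.2%, median -0.04). Polg2, the accessory subunit of the mitochondrial DNA polymerase (0.90), and Tefm, the mitochondrial transcription elongation factor (0.39), were higher. Ssbp1, the mitochondrial single-strand DNA binding protein (-0.64), and Mterf1a (-0.92) were lower. Of 17 mitochondrial aminoacyl-tRNA synthetases, 5 were higher (29.4%) and 7 lower (41.2%, median -0.10). Mars2 (0.74) and Lars2 (0.46) were higher, and Sars2 (-1.28) and Wars2 (-1.13, adjusted p = 3.82e-06) were lower.

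For comparison, of 76 tested genes for proteins of the cytosolic ribosome, 0 were called higher and 46 lower (60.5%). Over all tested genes, the shares were 31.8% and 30.6%. The median log2 fold change of these 76 genes was -0.36. Rps7 (-1.54) and Rpsa (-0.98) had the smallest p, although cytosolic ribosomal protein genes have many processed copies with which they may share reads. At an unadjusted p under 0.05 the counts were 0 and 49 by edgeR, and DESeq2 and limma-voom also called 0 higher. With library totals alone, 2 were called higher and 34 lower. Of 80 tested subunits of oxidative phosphorylation encoded in the nucleus, the machinery that the mitochondrial ribosome serves, 33 were higher (41.25%) and 10 lower (12.5%, median 0.14). Cox8a (0.75) and Ndufa7 (0.65) had the smallest p among the genes that were higher, and Cox6a2 (-2.65) and Ndufb2 (-0.84) among those that were lower. The medians of the mitochondrial ribosomal protein genes, -0.01 for the large and -0.10 for the small subunit, lay between those of these lists. The difference between the lists was not tested.

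**Figure D5:**
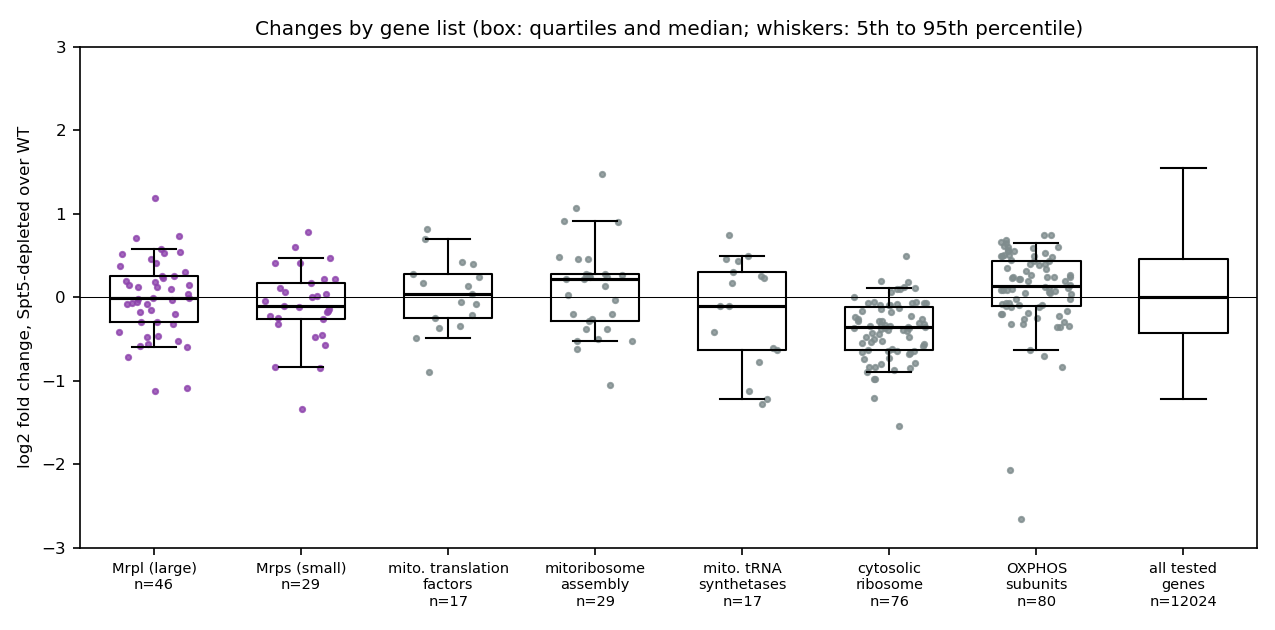
Log2 fold change, Spt5-depleted over WT, of the tested genes of 7 lists and of all tested genes; points are genes, boxes are quartiles with the median, and whiskers run from the 5th to the 95th percentile. The boxes of the Mrpl and Mrps genes lie around 0, as does that of all tested genes, while the median is -0.36 for cytosolic ribosomal proteins and 0.14 for subunits of oxidative phosphorylation.

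In the authors' deposited table, 14 large subunit genes had an adjusted p under 0.05 and a positive log2 fold change and 13 a negative one, against 26.4% and 25.7% of all genes in it. For the small subunit the authors' deposited table gave 6 and 10. The large subunit gene by which it differed from the edgeR calls is Mrpl38, with a log2 fold change of -0.31 and an adjusted p of 0.0366 in the authors' deposited table. By edgeR it had a log2 fold change of -0.30 ± 0.13 and an adjusted p of 0.0566, with 83.8, 86.5 and 83.6 CPM in Spt5-depleted libraries, against 85.2, 97.8 and 129.6 CPM in WT libraries. The WT libraries were spread widely for this gene and the groups overlapped.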

How the data were processed

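RNA-seq was analysed for 3 Spt5-depleted and 3 WT libraries, grouped by the sample labels. Per the labels' protocols, Trizol was used for RNA and a Lexogen SENSE kit for the libraries. The submitters' processing notes name featureCounts 1.5.0-p1, TopHat, Bowtie2 2.1.0, cutadapt 1.10, build mm9 and DESeq2 1.10.1. The sources used here do not give the annotation, the strand setting or the treatment of reads with several matches. The deposited table holds whole read counts per gene, not normalised, for genes with at least 10 counts in all. It also holds log2 fold changes and adjusted p-values, which the authors computed; no other value comes from them than those credited to that table. Suffixes were removed from 2269 gene names; 10 of the genes described had one.

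Counts were tested in R 4.3.3 with edgeR 4.0.16 (filterByExpr, TMM, robust quasi-likelihood F test, two-sided, Benjamini-Hochberg over 12024 genes, threshold 0.05), after the scripts had been tested on simulated data. TMM takes the bulk of genes as unchanged. The biological coefficient of variation was 0.098. Replicate pairs differed by more than counting noise (chi-square over its degrees of freedom, 6.48 to 33.6). Intervals are standard errors or SDs over libraries. Members and lists were chosen with earlier results of these data known. Named were the 8 largest rises and falls of the large subunit and the 6 of the small subunit among called genes without overlap, the 2 nearest no change in each, Mrpl12, Mrps12, Mrpl44, Mrps22, the Mrps18 paralogs, and up to 2 genes each way per list. The few other genes printed were picked after their values were seen. A gene of the B cell marker list is not reported here and was left out of its counts. Alternatives were DESeq2 size factors, library totals, upper-quartile factors, a minimum mean of 5 CPM, no filter, DESeq2 1.42.0, limma-voom 3.58.1, the replicate number as a block, an adjusted p under 0.01, other sortings, and leaving out each library. Promoter letters and gene order are from RefSeq GRCm38.p6, in which all 76 genes matched by symbol.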

Additional observations from a re-analysis of the deposited data

How the results depend on the processing

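The 42 called genes kept the sign of their log2 fold change under each alternative run. With library totals alone, small subunit calls were 10 higher and 6 lower, against 6 and 10 by TMM, and large subunit calls were 21 and 10, against 14 and 12; 6 calls were lost (Mrpl1, Mrpl35, Mrps7, Mrps16, Mrps22 and Mrps35) and 11 were gained. Calls by library totals were 64.8% higher over all genes, against 51.0% by TMM. Leaving out 1 library gave 11 to 16 large subunit genes higher, 11 to 14 lower, 5 to 7 small subunit genes higher and 7 to 10 lower, and 34 of the 42 calls were kept in all 6 such fits. Deviations of same-numbered libraries from their group means had correlations of 0.0261, -0.0582 and -0.0506. Those of differently numbered libraries ran from -0.078 to 0.136. With 3 libraries per group, these values cannot show whether the numbers mark pairs. With the replicate number as a block, 13 and 13 large and 5 and 8 small subunit genes were called higher and lower. Size factors of DESeq2, upper-quartile factors, a mean of at least 5 CPM and limma-voom gave the same 4 counts as the edgeR fit, and no filter or DESeq2's test added Mrpl38. Among genes whose names carry no suffix, 13 large subunit genes were called higher and 9 lower, and 6 small subunit genes higher and 9 lower. Genes that share reads with overlapping genes or copies cannot be separated in these counts, and depth does not allow a test of Mrpl23.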
